A study of Mus musculus with 8 samples.

Results

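The EBF (early B-cell factor) transcription factors Ebf1, Ebf2, Ebf3 and Ebf4 were followed through mouse telencephalon that carried Dlx1/2 mutations. Every probe set whose platform annotation names 1 of the 4 genes alone was taken, which gave 4 of 18193 genes and 12 of 45037 probe sets: 5 for Ebf1, 3 for Ebf2, 3 for Ebf3 and 1 for Ebf4. The family was picked because its paralogues moved in opposite ways between the genotypes in basal ganglia, so that comparison is given for these 12 probe sets as a description without a test.

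RNA came from basal ganglia (BG) and cortex (Ctx), each labelled -/- or +/- for Dlx1/2, neighbouring homeobox genes of the ventral forebrain. The groups BG -/-, BG +/-, Ctx -/- and Ctx +/- had n = 2 arrays each, 8 in all. No group without a mutant allele was analysed here, so -/- is set against +/- throughout. The labels give no age, strain, allele design or number of animals, and nothing in them shows that replicate arrays held different animals, so p-values may measure technical spread only.

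EBF proteins bind DNA as dimers through a zinc-coordinating domain and a helix-loop-helix motif, and act mainly as activators of cell differentiation. Ebf1 specifies B lymphocytes, and in the embryonic mouse striatum it marks neurons leaving the germinal zone of the lateral ganglionic eminence (LGE) and is needed for direct-pathway projection neurons. Ebf2 acts in brown fat and in migrating neurons and is present in Cajal-Retzius neurons, the early Reelin-secreting neurons of the cortical surface. Ebf3 acts in olfactory and other newborn neurons, and Ebf4 is the least studied member.

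Genotype was checked first with the targeted genes. Dlx1 had signals of 3.67 and 15.5 in BG -/- against 1232 and 1237 in BG +/-, and 2.42 and 1.74 in Ctx -/- against 138 and 137 in Ctx +/-. Dlx2 had 8.56 and 8.68 in BG -/- against 358 and 287 in BG +/-, and 12.0 and 6.69 in Ctx -/- against 55.3 and 55.3 in Ctx +/-. Both were thus far lower in every array labelled -/-, although the position of their probes against the deletion is not given in the sources used here. Across probe sets, Pearson correlations of log2 levels were 0.973 to 0.982 within groups and 0.930 to 0.977 between them. Ctx +/- replicate 3 correlated at 0.977 with either Ctx -/- array and at 0.973 with its own partner. The genotypes also differed in sex-linked genes in both regions: Xist, which coats the inactive X chromosome, read 2340 and 2519 in BG -/- against 34.2 and 42.4 in BG +/-, and 2457 and 2363 in Ctx -/- against 62.6 and 67.5 in Ctx +/-. The Y-linked Eif2s3y read 4.93 and 1.20 in BG -/- against 241 and 261 in BG +/-, and 3.97 and 6.46 in Ctx -/- against 448 and 342 in Ctx +/-. Sex and genotype cannot be told apart in either region. A source label reads blood and adrenal medulla, and the sample titles hold the same words before BG or Ctx. The brain region was taken from title and description. Of 8 B-lymphocyte genes, the cells for which the family is named, 3 passed the filter on dim probe sets and their summed signal was 73.7 to 86.7 in BG -/-, 73.9 to 94.6 in BG +/-, 33.0 to 66.4 in Ctx -/- and 74.0 to 80.1 in Ctx +/-. Of 7 adrenal medulla genes 5 passed it, with summed signals of 615 to 896 over all 8 arrays.

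Ebf1 and Ebf3 lie on chromosomes 11 and 7 (GRCm38.p6), Ebf2 and Ebf4 on chromosomes 14 and 2. The 250 bases before a RefSeq start (GRCm38.p6) are shown for Ebf1 and Ebf3, the members that moved in opposite ways, since DLX proteins bind DNA at a TAATT core. The Ebf1 window is chr11:44617850-44618099 on the plus strand and the Ebf3 window chr7:137314446-137314695 on the minus strand, both 5′ to 3′, with each TAATT (either strand) in capitals.
Ebf1: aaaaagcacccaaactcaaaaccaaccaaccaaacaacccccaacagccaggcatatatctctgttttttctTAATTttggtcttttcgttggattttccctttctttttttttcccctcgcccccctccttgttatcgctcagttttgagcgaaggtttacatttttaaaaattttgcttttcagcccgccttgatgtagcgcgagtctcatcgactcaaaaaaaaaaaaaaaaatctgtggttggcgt
Ebf3: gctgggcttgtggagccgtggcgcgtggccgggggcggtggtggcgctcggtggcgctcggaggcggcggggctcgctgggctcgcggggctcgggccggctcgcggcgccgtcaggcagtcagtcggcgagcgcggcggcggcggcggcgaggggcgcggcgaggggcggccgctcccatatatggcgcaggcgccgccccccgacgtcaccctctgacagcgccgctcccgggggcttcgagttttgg
The Ebf1 window held 1 TAATT and had a GC content of 40%, and the Ebf3 window held none and had a GC content of 80%. A window at another Ebf1 start (chr11:44619978-44620227) and the window of Ebf4 (chr2:130295689-130295938) held none either. The printed Ebf1 window ends just before the outer start of the gene (44618100). The Ebf3 and Ebf4 windows lie inside their genes (137193671 to 137322805 and 130295126 to 130370482), before internal starts, so the windows are not alike. The motif occurred in 25% of 32851 promoter windows of this length. A match describes these letters only, and 3 of the 4 genes had an entry.

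Signals are the deposited linear values, and differences are on the log2(signal + 16) scale, which understates changes of dim probe sets. Without detection calls, a low signal cannot be read as absence. Of the 12 EBF probe sets, 9 passed the filter that left out the dimmest 30%: 4 of Ebf1, 1 of Ebf2, all 3 of Ebf3 and that of Ebf4. Differences, standard errors and adjusted p come from limma with Benjamini-Hochberg adjustment over the 31526 probe sets kept. For the 3 dimmer EBF probe sets, which were not tested, the standard error is from a fit without the filter. Each gene is represented by its brightest probe set.

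Ebf1 was a gene of basal ganglia in these samples and was lower there without Dlx1/2. On its brightest probe set, 1416301_a_at, the signals were 251 and 240 in BG -/- against 620 and 576 in BG +/-. They were 19.1 and 17.6 in Ctx -/- against 27.7 and 29.8 in Ctx +/-. The BG -/- arrays thus lay below both BG +/- arrays and far above every cortical array. The means were 246 ± 7.72 in BG -/- and 598 ± 31.3 in BG +/- (SD, n = 2 each), and the log2 difference was -1.23 ± 0.12 (SE).

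The other Ebf1 probe sets gave the same order in basal ganglia. Probe set 1439789_at read 161 and 195 in BG -/- against 358 and 388 in BG +/-, a log2 difference of -1.01 ± 0.16 (SE). Probe set 1448293_at read 126 and 132 in BG -/- against 335 and 332 in BG +/-, a log2 difference of -1.27 ± 0.30 (SE). Probe set 1416302_at read 123 and 115 in BG -/- against 286 and 238 in BG +/-, a log2 difference of -1.03 ± 0.27 (SE). The mean signal in BG -/- was thus 0.387 to 0.477 of that in BG +/- on these 4 probe sets. Of the Ebf1 probe sets, 3 were designed on 1 transcript record, so they share a target. The dim probe set 1457441_at read 11.6 and 6.79 in BG -/- against 23.7 and 28.3 in BG +/-, at -0.74 ± 0.30 (SE). Over the 8 arrays the Ebf1 probe sets correlated pairwise at 0.671 to 0.995, as a description.

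Ebf3 moved the other way. Its brightest probe set, 1428349_s_at, read 286 and 365 in BG -/- against 58.9 and 54.2 in BG +/-. It read 107 and 96.8 in Ctx -/- against 91.2 and 79.7 in Ctx +/-. The BG -/- arrays were the highest of all 8 and the BG +/- arrays the lowest. The means were 325 ± 56.2 in BG -/- and 56.6 ± 3.36 in BG +/- (SD, n = 2 each), a ratio of 5.75 and a log2 difference of 2.23 ± 0.15 (SE).

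Both further Ebf3 probe sets were higher in BG -/- as well, by smaller ratios. Probe set 1452751_at read 272 and 257 in BG -/- against 82.0 and 86.3 in BG +/-, a ratio of means of 3.14 and a log2 difference of 1.49 ± 0.20 (SE). Probe set 1460666_a_at read 198 and 197 in BG -/- against 50.2 and 59.2 in BG +/-, a ratio of means of 3.62 and a log2 difference of 1.60 ± 0.12 (SE). On none of the 3 did the genotypes overlap in basal ganglia. The 3 probe sets correlated pairwise at 0.902 to 0.969 over the 8 arrays, and 2 of them share a transcript record.

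Ebf2 was dim, and its signals in BG -/- stood above those in BG +/- on all 3 probe sets. Probe set 1418494_at, the brightest, read 40.7 and 45.0 in BG -/- against 10.4 and 26.7 in BG +/-, a log2 difference of 0.81 ± 0.33 (SE). Probe set 1449101_at read 32.7 and 34.1 in BG -/- against 3.82 and 4.68 in BG +/-, at 1.29 ± 0.21 (SE). Probe set 1449102_at read 31.5 and 24.7 in BG -/- against 18.8 and 2.49 in BG +/-, at 0.79 ± 0.29 (SE). Outside BG -/- no Ebf2 signal exceeded 26.7, and the lowest was 0.724. All 3 probe sets were designed on 1 transcript record.

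Ebf4 did not separate the genotypes in basal ganglia. Its probe set 1435044_at read 74.0 and 57.8 in BG -/- against 65.5 and 63.0 in BG +/-, so the BG -/- arrays lay on either side of the BG +/- arrays. The log2 difference was 0.02 ± 0.15 (SE).

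**Figure D1:**
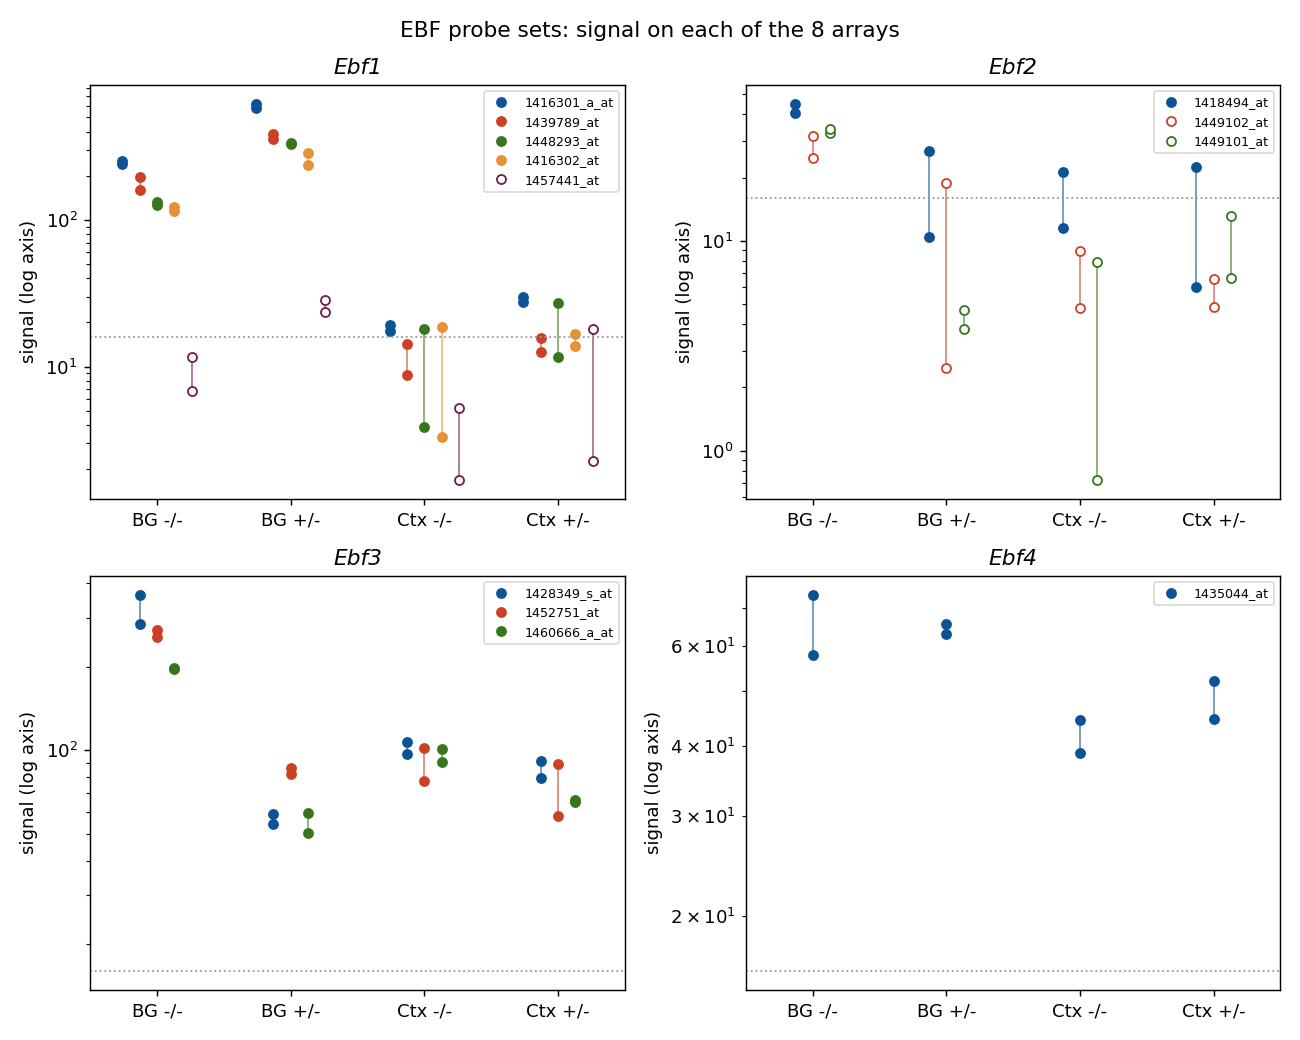
Signal of the 12 EBF probe sets on each of the 8 arrays (log axis), in 1 panel per gene, with groups along the x axis. Each colour is a probe set, lines join the 2 arrays of a group, open points did not pass the filter on dim probe sets, and the dotted line is a signal of 16. Ebf1 stands lower and Ebf3 higher in BG -/- than in BG +/-, and Ebf1 is under 30 on every cortical array.

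In BG 9.74% of all probe sets were called between the genotypes, 7.50% higher and 2.23% lower in -/-. Arrays of the genotypes did not overlap for 8 of the 9 EBF probe sets kept, 4 above and 4 below, as they did not for 60.0% of all probe sets, 31.3% above and 28.6% below. As the family was picked on this comparison, nothing is read from that count. The number of probe sets called in basal ganglia rests on single arrays: it was 3070 with all arrays. Leaving out BG -/- replicate 2 or 3 gave 139 or 112, leaving out BG +/- replicate 2 or 3 gave 467 or 699, and leaving out Ctx -/- replicate 2 or 3 gave 1574 or 1572. In bulk tissue, fewer cells of a type and less RNA per cell cannot be told apart.

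The cortex, which the choice of the family did not use, gave no call for any member. None of the 9 EBF probe sets passed in Ctx -/- against Ctx +/- (limma, lowest adjusted p = 0.315), and 2 of them had an unadjusted p under 0.05. Over all probe sets 0.225% were called there, and 3050 of the 31526 kept had an unadjusted p under 0.05. The brightest Ebf1 probe set had a log2 difference of -0.38 ± 0.12 (SE, adjusted p = 0.36), between 18.4 ± 1.10 in Ctx -/- and 28.8 ± 1.5 in Ctx +/- (SD, n = 2 each). The brightest Ebf3 probe set had 0.22 ± 0.15 (SE, adjusted p = 0.695), and 1460666_a_at, at 91.0 and 101 in Ctx -/- against 64.9 and 66.4 in Ctx +/-, had 0.46 ± 0.12 (SE, adjusted p = 0.315). These 2 Ebf3 probe sets lay above in both Ctx -/- arrays, the brightest Ebf1 probe set and that of Ebf4 lay below, and the other 5 overlapped. Arrays did not overlap for 39.4% of all probe sets in cortex, 18.6% above and 20.9% below.

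Ebf2 and Ebf4 gave no call in cortex either. Probe set 1418494_at of Ebf2 read 11.5 and 21.3 in Ctx -/- against 22.5 and 6.02 in Ctx +/-, a log2 difference of 0.14 ± 0.33 (SE, adjusted p = 0.93). Without Ctx +/- replicate 3 the sign turned, to -0.27, and without Ctx -/- replicate 3 it was -0.08. Ebf4 read 38.9 and 44.4 in Ctx -/- against 44.5 and 52.1 in Ctx +/-, a log2 difference of -0.16 ± 0.15 (SE, adjusted p = 0.773).

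**Figure D2:**
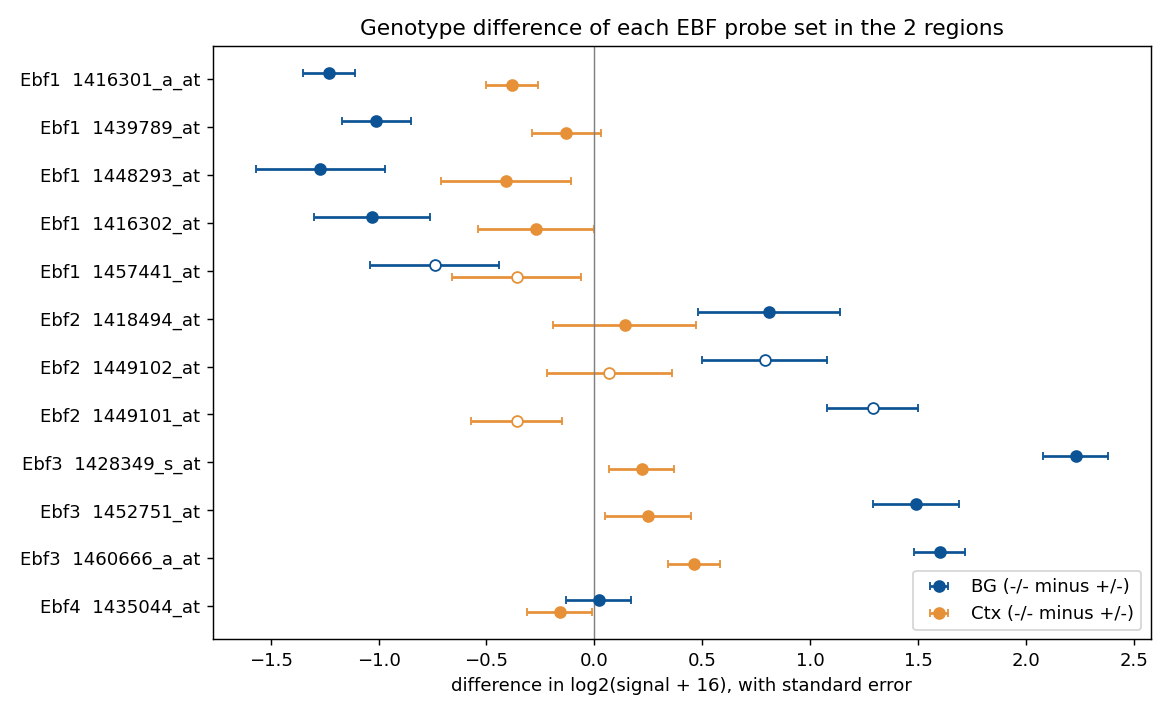
Difference in log2(signal + 16), -/- minus +/-, of each EBF probe set in BG (blue) and Ctx (orange), with standard errors from the fit and open points for probe sets that did not pass the filter. In BG the Ebf1 probe sets lie between -1.27 and -0.74 and the Ebf3 probe sets between 1.49 and 2.23, while every point of Ctx lies between -0.41 and 0.46.

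The difference between the genotype effects of the regions contains the comparison that picked the family and is given without a test. Taken as BG minus Ctx on the log2 scale, it was -0.85 ± 0.16 for Ebf1, 0.67 ± 0.47 for Ebf2, 2.01 ± 0.22 for Ebf3 and 0.18 ± 0.21 for Ebf4 (SE, brightest probe sets). The other tested Ebf1 probe sets were at -0.87 to -0.76 and the other Ebf3 probe sets at 1.23 and 1.14.

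Whether a member was a gene of basal ganglia or of cortex was tested with the mean of both genotypes in each region. This contrast is orthogonal to the genotype comparison in BG, although both use the BG arrays. Ebf1 was higher in BG. Its brightest probe set had a log2 difference of 3.35 ± 0.08 (SE, limma adjusted p = 9.55e-06), which ranked 11 of 13627 genes from the most basal ganglia-biased. Every array of BG exceeded every array of Ctx on the 4 tested Ebf1 probe sets, whose cortical signals were 3.29 to 29.8, so no ratio is given. The probe sets other than the brightest had mean log2 levels of 4.83 to 4.91 over the cortical arrays, under the filter level of 5.01, and so were kept through their BG signals. With no filter their differences were 2.77 to 3.25 and they passed (highest adjusted p = 0.000443).

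In the average of the genotypes Ebf4 was also higher in BG, by far less, and Ebf3 was higher there through -/-. The brightest Ebf3 probe set had a log2 difference of 0.52 ± 0.11 (SE, adjusted p = 0.0121), and the others had 0.80 ± 0.14 (adjusted p = 0.00683) and 0.36 ± 0.09 (adjusted p = 0.0203). Within the genotypes it was 1.52 ± 0.15 in -/- and -0.48 ± 0.15 in +/- on the brightest probe set (SE, not tested). On 1452751_at it was 1.41 ± 0.20 in -/- and 0.18 ± 0.20 in +/-, and on 1460666_a_at 0.93 ± 0.12 in -/- and -0.21 ± 0.12 in +/-. The sign in +/- was thus not shared by the 3 probe sets. On the brightest and on 1460666_a_at BG +/- lay below Ctx +/-, so the averaged difference came wholly from -/-. On 1452751_at it came mainly from -/-. The averaged Ebf3 calls thus carry the rise in BG -/- on which the family was picked, and no region bias is read from them. Ebf4 had 0.41 ± 0.10 (SE, adjusted p = 0.0225), with 65.9 ± 11.4 in BG -/- and 64.2 ± 1.76 in BG +/-, against 41.7 ± 3.91 in Ctx -/- and 48.3 ± 5.33 in Ctx +/- (SD, n = 2 each). Ebf2 had 0.54 ± 0.23 (SE, adjusted p = 0.117) and did not pass.

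Over all probe sets 35.3% were called between the regions, 19.6% higher in BG and 15.7% lower. As some members were kept through BG alone, no count over the members is given. Of the calls over all probe sets 55.5% were higher, and 29.3% when array medians were set equal. The median difference of all probe sets was then -0.14, against 0.06 as deposited. With that centring the brightest Ebf3 probe set, at 0.32 ± 0.12 (SE, adjusted p = 0.0632), its probe set 1460666_a_at, at 0.16 ± 0.11 (SE, adjusted p = 0.285), and Ebf4, at 0.21 ± 0.13 (SE, adjusted p = 0.227), no longer passed. Ebf4 also did not pass when BG -/- replicate 2 (0.34), either BG +/- array (0.40 and 0.42) or Ctx -/- replicate 2 (0.38) was left out. The Ebf3 probe set 1460666_a_at did not pass when either BG -/- array (0.36 each), BG +/- replicate 3 (0.32) or Ctx -/- replicate 2 (0.33) was left out. Without Ctx +/- replicate 2 the Ebf2 difference was 0.74. The Ebf2 probe set had a mean log2 level of 4.93 over the cortical arrays, under the filter level of 5.01. It was thus kept through its BG signals, and no region bias is read from it.

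The order of the groups differed by member. For Ebf1 it was BG +/-, BG -/-, Ctx +/- and Ctx -/- from high to low, with the cortical neighbours not past the test. For Ebf3 it was BG -/-, Ctx -/-, Ctx +/- and BG +/- on the brightest probe set and on 1460666_a_at, again with the cortical neighbours not past the test. On 1452751_at BG +/- and both Ctx groups overlapped. For Ebf2 BG -/- came first, and the other 3 groups overlapped on the brightest probe set. On the dimmer 1449101_at BG +/- (3.82 and 4.68) lay below Ctx +/- (6.65 and 13.2). For Ebf4 the BG groups overlapped and both lay above the Ctx groups. Over the 8 arrays, which share groups, log2 levels correlated at 0.0571 between Ebf1 and Ebf3, 0.734 between Ebf2 and Ebf3 and 0.871 between Ebf1 and Ebf4 (Pearson, descriptive).

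Genes of striatal direct-pathway and LGE neurons, the lineage in which Ebf1 is known, were lower in BG -/-. Of 12 tested, 7 fell, none rose and 5 did not pass in BG (limma), where 7.82% of all genes were called and 3.05% lower. The list's median log2 difference was -1.02, beside -0.08 for all genes. Rarb, a retinoic acid receptor, had 37.3 and 39.5 in BG -/- against 270 and 271 in BG +/- (log2 difference -2.40 ± 0.12, SE, adjusted p = 0.000822). Foxp1, a transcription factor of striatal neurons, had 261 and 285 in BG -/- against 912 and 932 in BG +/- (-1.70 ± 0.14, adjusted p = 0.00355). Drd1, the dopamine receptor that defines the direct pathway, had 52.3 and 36.2 in BG -/- against 123 and 126 in BG +/- (-1.24 ± 0.18, adjusted p = 0.0128). Six3, a homeobox gene of the LGE, had 148 and 145 in BG -/- against 351 and 369 in BG +/- (-1.21 ± 0.17, adjusted p = 0.0117), while its other tested probe set had 0.58 ± 0.29 and did not pass. Not the whole list followed: Isl1, which is needed for direct-pathway neurons, had 1339 and 1460 in BG -/- against 1499 and 1629 in BG +/- (-0.16, adjusted p = 0.561), and it is named here after its values were seen. In Ctx none of the 12 passed (3 at an unadjusted p under 0.05), where 0.205% of all genes were called. Drd1 and Foxp1 were not particular to BG, with signals of 95.2 to 126 and 339 to 537 on the cortical arrays. Rarb and Six3 were low there, at most 14.1 and 27.6. With 1 BG array left out the count that fell was 3 (BG -/- replicate 2) or 2 (BG -/- replicate 3 and either BG +/- array). Of 3 tested genes of the indirect pathway 1 fell, the enkephalin precursor Penk, at -0.97 ± 0.14 (SE, adjusted p = 0.0121).

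Some genes of diencephalon, amygdala and neighbouring brain, regions where newborn neurons are known to carry Ebf genes, were higher in BG -/-, as Ebf3 was. Of 11 tested, 5 rose, none fell and 6 did not pass in BG, where 4.76% of all genes were called higher, and the list's median log2 difference was 0.71. The long non-coding RNA Rmst had 249 and 258 in BG -/- against 52.9 and 47.6 in BG +/- (2.03 ± 0.18, SE, adjusted p = 0.0045). Otp, a homeobox gene of hypothalamus and amygdala, had 440 and 493 in BG -/- against 218 and 212 in BG +/- (1.06 ± 0.15, adjusted p = 0.0127). Slc17a6, a vesicular glutamate transporter, had 505 and 485 in BG -/- against 230 and 236 in BG +/- (1.04 ± 0.16, adjusted p = 0.0141). It was not particular to these regions, with 592 and 662 in Ctx -/- and 488 and 640 in Ctx +/-. Otx2, a homeobox gene of several brain regions and of choroid plexus, had 95.4 and 71.2 in BG -/- against 13.3 and 34.9 in BG +/- (1.35 ± 0.27, adjusted p = 0.0284). The fifth was Lhx9, named after its values were seen, with 219 and 215 in BG -/- against 143 and 136 in BG +/-. Lhx9 and Rmst were not particular to these regions either. In Ctx Lhx9 had 184 to 232, and Rmst had 224 and 168 in -/- and 60.9 and 83.1 in +/-. Otp was at most 37.9 in Ctx, and Otx2 at most 66.9. The summed signal of the 11 genes was 1879 to 1910 in BG -/- against 921 to 934 in BG +/-, and 1260 to 1281 in Ctx -/- against 1158 to 1175 in Ctx +/-. How much tissue of these regions each dissection held, and its part in the Ebf3 values, was not tested. With 1 array left out the count that rose was 1 or 0 (BG -/- replicate 2 or 3), 1 or 2 (BG +/- replicate 2 or 3) and 3 (either Ctx -/- array). None of the 11 passed in Ctx, and 3 had an unadjusted p under 0.05. These did not share a direction: Rmst was at 1.27 ± 0.18 and Otx2 at -1.42 ± 0.27 (SE).

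Genes of Cajal-Retzius neurons, in which Ebf2 and Ebf3 are known, gave no call. None of 10 tested passed in BG (limma, 3 at an unadjusted p under 0.05) or in Ctx (none at an unadjusted p under 0.05). Of all 31526 probe sets kept, 8905 in BG and 3050 in Ctx had an unadjusted p under 0.05. Their median log2 difference in BG was 0.24, beside -0.08 for all genes, and 9 of the 10 differences were positive there, against 6 in Ctx. Trp73, a p53 relative that marks these cells, read 54.0 and 47.5 in BG -/- against 26.4 and 35.5 in BG +/- (0.51 ± 0.14, adjusted p = 0.0691), and another of its probe sets passed at 0.95 ± 0.23 (adjusted p = 0.0499). Ndnf, a secreted factor of these cells, was at 0.57 ± 0.14 (adjusted p = 0.0557), and Reln, the gene of Reelin, at 0.30 ± 0.16 (adjusted p = 0.287). The 3 genes Ndnf, Trp73 and Nhlh2 passed when the dimmest 50% of probe sets were left out. Of 7 genes of the cortical hem, a source of these neurons, none passed in BG or Ctx, and all 7 differences were negative in both, with medians of -0.47 and -0.36 (3 and 1 at an unadjusted p under 0.05).

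Of 11 cofactors and regulators of EBF action none passed on its brightest probe set in BG or in Ctx (limma). In BG 4 had an unadjusted p under 0.05, and in Ctx 1. Of all 31526 probe sets kept, 8905 in BG and 3050 in Ctx had such a p. Zfp423, a zinc finger protein that binds EBF factors, was at 0.45 ± 0.18 in BG (adjusted p = 0.156). Tet2, a DNA demethylase, was at 0.80 ± 0.29 (adjusted p = 0.128), and another of its probe sets passed at 0.60 ± 0.13 (adjusted p = 0.0342). A dimmer probe set of Foxo1, a forkhead factor, passed at -0.80 ± 0.17 (adjusted p = 0.0327), while its brightest was at -0.35 (adjusted p = 0.357), and the gene is named after its values were seen. In BG 4.76% of all genes were called higher and 3.05% lower. Of 14 genes of the neurogenic cascade and neuron differentiation, 2 rose in BG -/-, Dcx at 0.93 ± 0.13 (adjusted p = 0.0115) and Elavl4 at 0.68 ± 0.13 (adjusted p = 0.0241), both of newborn neurons. A further 2 fell, the proneural genes Neurog1 at -0.92 ± 0.17 (adjusted p = 0.0248) and Neurog2 at -0.56 ± 0.13 (adjusted p = 0.0421), of which Neurog1 averaged 4.49 in BG -/- and 22.8 in BG +/-. The other 10 did not pass on their brightest probe sets, although another probe set of Neurod1, a proneural gene named after its values were seen, did at 0.66 ± 0.12 (adjusted p = 0.0248). None of the 14 passed in BG when any single BG array was left out, 1 rose and none fell when either Ctx -/- array was, and none of the 14 passed in Ctx (2 at an unadjusted p under 0.05). Dcx in Ctx was at 0.76 ± 0.13 (adjusted p = 0.131) on its brightest probe set, and another of its probe sets passed there at 1.16 ± 0.14 (adjusted p = 0.0436).

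**Figure D3:**
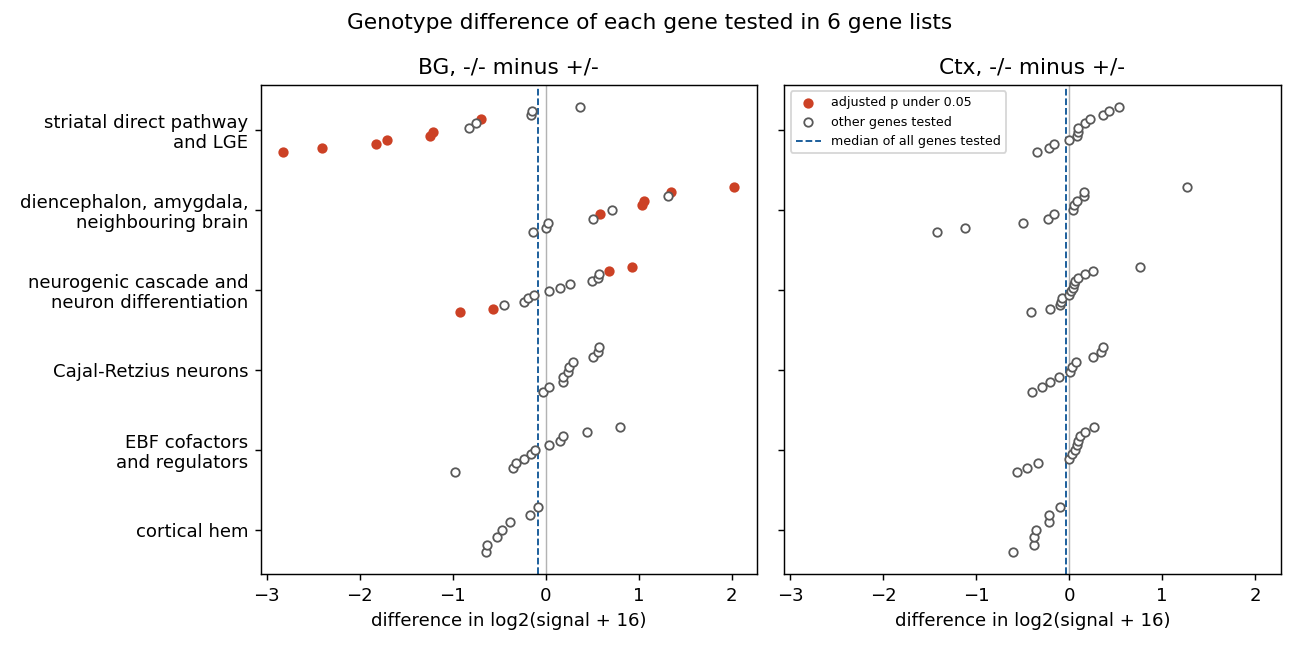
Difference in log2(signal + 16), -/- minus +/-, of each tested gene of 6 lists in BG (left) and Ctx (right), 1 point per gene on its brightest probe set. Filled points passed adjusted p = 0.05, and the dashed line is the median of all 13627 genes. In BG 7 of 12 striatal and LGE genes fell and 5 of 11 genes of neighbouring brain rose.

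Genes of other cell types the samples could hold were also measured. Over all genes 4.76% were called higher and 3.05% lower in BG, and 0.205% were called in Ctx. Of 12 tested mural and meningeal genes, 1 rose in BG -/-, the pericyte gene Rgs5 at 0.97 ± 0.12 (SE, adjusted p = 0.00916), and 1 fell, Fbln1 at -0.62 ± 0.14 (SE, adjusted p = 0.0384), whose other probe sets did not pass. Their summed signal was 1226 to 1244 in BG -/- and 1121 to 1134 in BG +/-, and 954 to 1012 in Ctx -/- and 983 to 991 in Ctx +/-. None of 3 B-lymphocyte, 4 olfactory sensory neuron or 1 adipocyte gene tested passed in BG (none, 1 and 1 at an unadjusted p under 0.05) or Ctx (none at an unadjusted p under 0.05). Red blood cell genes, 4 of them tested, summed to 3113 to 3240 in BG -/- and 5946 to 6240 in BG +/-, and Hbb-y fell in BG -/- at -0.98 ± 0.13 (SE, adjusted p = 0.0101). Choroid plexus genes summed to 44.2 to 102 in Ctx -/- and 12145 to 13988 in Ctx +/-, with Ttr at -9.54 ± 0.21 (SE, adjusted p = 1.55e-05). The part of these cell types in the EBF values was not tested.

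The genes whose levels followed a member most closely over the 8 arrays were found by Pearson correlation among 13627 genes, as a description of arrays that share groups. Trappc6b (0.997), Calb1 (0.995) and Fam241b (0.995) were closest to Ebf1, and Cyria (-0.999), Kcnq3 (-0.997) and Kcnn2 (-0.996) ran most against it. Calb1, a calcium-binding protein of neurons, had 312 and 320 in BG -/- against 591 and 596 in BG +/-, and 32.1 and 22.5 in Ctx -/- against 51.3 and 47.9 in Ctx +/-, which is the group order of Ebf1. Cyria, a regulator of actin, had 389 and 418 in BG -/- against 214 and 218 in BG +/-, with 1556 and 1636 in Ctx -/- against 1548 and 1333 in Ctx +/-.

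Cdh7 (0.986), Gdap1 (0.986) and Fstl5 (0.984) were closest to Ebf3, and Ube2c (-0.988), Apool (-0.988) and Shb (-0.982) ran most against it. Cdh7, a cell adhesion cadherin, had 178 and 187 in BG -/- against 52.1 and 59.9 in BG +/-, and 80.3 and 88.0 in Ctx -/- against 77.1 and 63.9 in Ctx +/-. Ube2c, a ubiquitin-conjugating enzyme of mitosis, had 788 and 760 in BG -/- against 1126 and 1140 in BG +/-. Closest to Ebf2 were Ranbp6 (0.961), Lca5l (0.960) and Ino80dos (0.960), with Exo5 (-0.952), Dctn2 (-0.946) and Crtap (-0.945) most opposite. Closest to Ebf4 were Nnmt (0.993), Noct (0.977) and Majin (0.976), with Crebbp (-0.971), Ifi30 (-0.969) and Cd47 (-0.968) most opposite. For the dim Ebf2 and for Ebf4 these correlations include differences between arrays of 1 group. Lca5l read 12.6 and 39.4 in BG +/-, where Ebf2 read 10.4 and 26.7. Nnmt read 59.7 and 29.3 in BG -/-, where Ebf4 read 74.0 and 57.8. No shared regulation is read from them.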

How the data were processed

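The authors deposited intensity values, 1 linear signal per probe set, for 45101 probe sets on 8 arrays. The software is not given in the sources used here. The trimmed mean of each array (2% off each end) was 150, so arrays had been scaled. After 64 controls were left out, 45037 remained, of which the platform annotation names 1 gene for 34945, several for 932 and none for 9160. Groups and replicate numbers came from the sample titles.

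Signals were analysed as log2(signal + 16). The dimmest 30% by mean were left out, and 4 group means were fitted with limma 3.58.1 in R 4.3.3 (4 residual and 2.76 prior degrees of freedom), adjusted by Benjamini-Hochberg at 0.05. The fit was tested on simulated arrays. Members, gene lists and tests were chosen with earlier results of these data known. From each of 15 lists, up to 4 genes with the smallest p in BG and 2 in Ctx could be named, and the 3 most alike and most opposite genes per member, without clone names. Promoter windows are RefSeq's (GRCm38.p6). The number of arrays limits precision.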

Additional observations from a re-analysis of the deposited data

Results flagged for a closer look

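For Dlx1, Dlx2, Rarb, Foxp1, Otx2, Ttr and Kcne2 the genotype effect differed between the regions by a test of the difference itself (limma with Benjamini-Hochberg). The EBF probe sets were not tested for this difference, since it contains the comparison that picked them. Dlx1 and Dlx2 averaged 9.57 and 8.62 in BG -/- and 2.08 and 9.35 in Ctx -/-, under the offset of 16. Their difference thus follows their +/- levels, 1234 and 323 in BG against 138 and 55.3 in Ctx. Rarb in Ctx +/- (13.7) and Kcne2 in BG +/- (7.89) were also under the offset, and Ttr in BG +/- averaged 26.4. A fall could hardly show there. The log2 effect in BG minus that in Ctx was -2.56 ± 0.30 (SE, adjusted p = 0.0359) for Dlx1, with -5.65 in BG and -3.09 in Ctx. It was -2.28 ± 0.22 (SE, adjusted p = 0.0267) for Dlx2, with -3.77 in BG and -1.50 in Ctx. It was -2.04 ± 0.17 (SE, adjusted p = 0.023) for Rarb, with -2.40 in BG and -0.35 in Ctx. It was -2.13 ± 0.20 (SE, adjusted p = 0.0253) for Foxp1, with -1.70 in BG and 0.43 in Ctx. It was 2.77 ± 0.38 (SE, adjusted p = 0.046) for Otx2, with 1.35 in BG and -1.42 in Ctx. It was 8.98 ± 0.29 (SE, adjusted p = 0.000269) for Ttr and 2.56 ± 0.32 (SE, adjusted p = 0.0378) for Kcne2, both choroid plexus genes, with -0.56 and -0.17 in BG and -9.54 and -2.73 in Ctx.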

How the results depend on the processing

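The opposite direction of Ebf1 and Ebf3 in BG, on which the family was picked, was kept under every alternative run. On their tested probe sets both BG -/- arrays lay beyond both BG +/- arrays. No offset and no left-out array could therefore turn it, and nothing is read from its being kept. On the brightest probe sets Ebf1 was -1.10 and Ebf3 1.68 with an offset of 64, Ebf3 was 2.49 with an offset of 1, Ebf1 was -1.33 with arrays centred on their median, and they were -1.14 and 1.77 as the mean of the gene's tested probe sets, an alternative chosen after seeing the data. Ebf2 in BG was 1.30 with an offset of 1 and 0.38 with 64. Leaving out each array gave -1.28 to -1.18 for Ebf1, 0.46 to 1.16 for Ebf2, 2.06 to 2.39 for Ebf3 and -0.12 to 0.17 for Ebf4 in BG, and -0.42 to -0.35, -0.27 to 0.54, 0.14 to 0.30 and -0.24 to -0.07 in Ctx. In the averaged difference between regions it gave 3.33 to 3.38, 0.34 to 0.74, 0.44 to 0.61 and 0.34 to 0.48. Single arrays also turned the sign of 3 small Ctx differences, to 0.00 for Ebf3 1452751_at (without Ctx +/- replicate 3, range 0.00 to 0.51), 0.01 for Ebf1 1439789_at (without Ctx -/- replicate 2, range -0.28 to 0.01) and 0.15 for Ebf1 1416302_at (without Ctx -/- replicate 3, range -0.69 to 0.15). Between regions, Ebf3 was 0.32 and Ebf4 0.21 with median centring, and Ebf4 0.26 with quantile normalization and 0.41 with a variance trend, none past the test. No EBF probe set passed in Ctx under any alternative.

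Calls over all probe sets were 3070 in BG and 71 in Ctx. In BG they were 4969 with an offset of 64, 1761 with no filter, 4786 with the lowest 50% left out, 2001 with median centring (68.5% higher, against 77.1%), 5889 with a variance trend and 112 to 3410 without 1 array. In Ctx they were 41 with an offset of 1, 146 with 64, 112 with the lowest 50% left out, 212 with a variance trend and 19 to 39 without 1 array. Between regions they were 7580 to 11704 without 1 array, beside 11134. The replicate numbers pair no samples by the labels, and deviations of same-numbered arrays correlated at -0.0262 to 0.0218. With the replicate number as a block, calls were 2002 in BG, 36 in Ctx and 10277 between regions. The cause of these changes was not tested. Where an array is left out, its partner is assumed to vary like the other groups.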
